A study of Drosophila melanogaster with 2 samples.

Results

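The 10 nuclear receptor genes EcR, usp, ftz-f1, Hr3, Hr4, Hr38, Hr39, Hr51, Hr78 and Eip78C held 75 of the 8574 peaks that passed the reproducibility filter in a chromatin immunoprecipitation sequencing (ChIP-seq) study of the Drosophila melanogaster protein CG12769. They are 10 of 13945 protein-coding genes and 10 of the 21 nuclear receptor genes of the fly considered here. A peak was given to a gene when its summit, the position of highest signal, lay inside the annotated gene or within 2 kb of either end. The genes were selected on their measured peaks, so their counts and values are a description and no test was made on them. The study had 1 group of 2 samples, biological replicates 5 and 7: whole embryos of both sexes, pooled, aged 10 to 24 h as the sample source gives it, from 1 transgenic line that carries CG12769 with GFP at its C terminus. Chromatin was sonicated to 200 to 800 bp and precipitated with an antibody against GFP. Both samples carry the transgene, and no untagged embryos and no input chromatin were analysed here. The promoter of the fusion gene and the cells that make it are not given in these sources, and each peak is an average over the cell types of whole embryos. Peak values are the authors' own signal values, can be compared only within a list, and come with no read counts, so the depth behind them is unknown.

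Nuclear receptors are transcription factors that bind DNA through zinc fingers and are often switched by small lipophilic ligands. In insects the steroid ecdysone acts through a heterodimer of EcR and Ultraspiracle (usp), and the hormone-bound receptor turns on a cascade of genes, many of which encode further nuclear receptors. This cascade is best known from moulting and metamorphosis, and a pulse of ecdysone also occurs in the middle of embryogenesis. Several genes of the cascade are long and are transcribed from alternative promoters, which give proteins with different N termini or times of expression.

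All 10 genes had at least 1 peak of the reproducible set (called the IDR set here, after the irreproducible discovery rate), whereas 37.4% of all coding genes did. The counts were 19 at Hr4, 17 at ftz-f1, 16 at EcR, 6 at Eip78C, 5 at Hr39, 4 at Hr3, 4 at usp, 2 at Hr38, 1 at Hr51 and 1 at Hr78. Hr4, ftz-f1 and EcR together held 52 of the 75. With the summit required inside the gene itself, 7 of the 10 genes still had a peak, against 17.8% of coding genes, and the genes without one were Hr38, Hr51 and Hr78. All 10 genes also had a peak in the pooled list of 30000 peaks and in each replicate's list of 30000, where the share among coding genes was 52.2% in the pooled list, 55.7% in replicate 5 and 52% in replicate 7. The genes held 199 pooled peaks, 196 peaks of replicate 5 and 201 peaks of replicate 7.

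The listed genes are long, and long genes offer more room for peaks. Their lengths ran from 3.48 kb at Hr78 to 81.2 kb at EcR, with a median of 32.2 kb, whereas the median coding gene measured 2.17 kb. Of coding genes of at least 20 kb, 74.4% had an IDR peak, and 7 of the 10 genes were in that class. At least 10 IDR peaks were found at 3 of the 10 genes and at 0.696% of all coding genes. Within the class of at least 20 kb the same threshold was passed by 3 of the 7 listed genes and by 8.79% of all genes of the class. The median count in that class was 6 for the 7 listed genes and 2 for all genes. Per 10 kb of gene with its flanks, the 10 genes held 1.97 IDR peaks, all coding genes 0.792 and coding genes of at least 20 kb 0.654. Among coding genes, 12 had as many IDR peaks as Hr4 or more, 17 as many as ftz-f1 and 23 as many as EcR, each count including the gene itself.

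**Figure D1:**
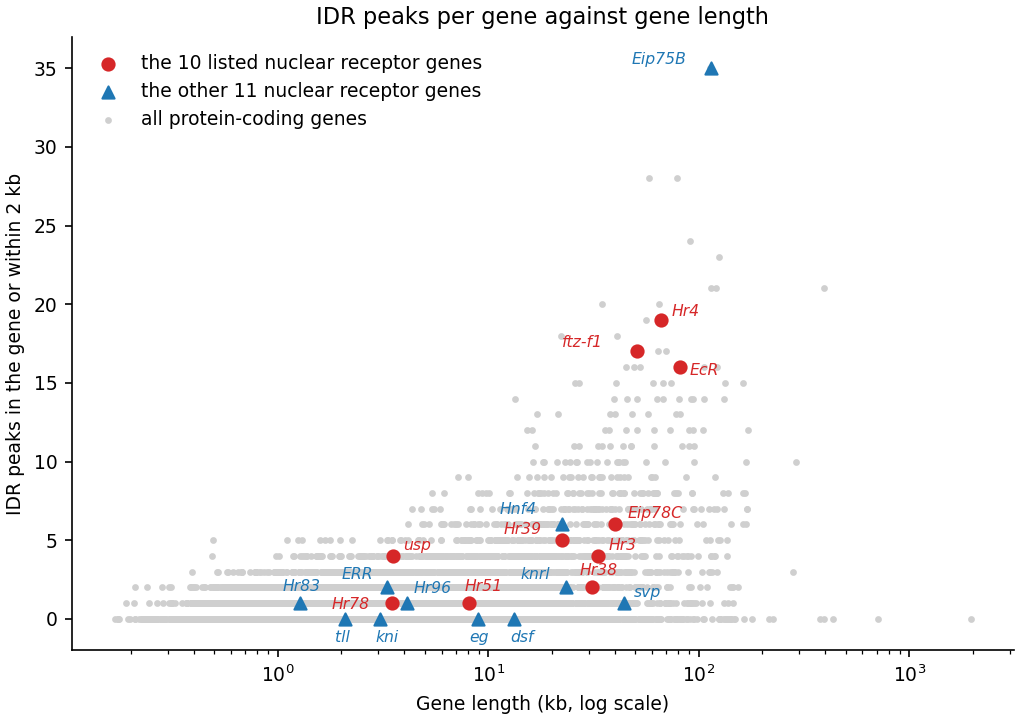
Number of IDR peaks in each gene or within 2 kb of it (y) against gene length in kb (x, log scale) for the 10 listed genes (red circles), the other 11 nuclear receptor genes (blue triangles) and all protein-coding genes (grey). Hr4, ftz-f1 and EcR stand at 19, 17 and 16 peaks, and Eip75B, outside the list, at 35.

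EcR encodes the ecdysone receptor itself. The gene lies on chromosome arm 2R from 6087873 to 6169087 on the reverse strand of dm6, is 81.2 kb long, and is annotated with 6 transcripts that start at 4 transcription start sites (TSSs). It held 16 IDR peaks, 59 pooled peaks, 55 peaks of replicate 5 and 55 of replicate 7, the highest pooled count of the 10 genes. Of its IDR peaks 14 were intronic, all in intron 3 of the longest transcript EcR-RA, which spans 56758 bp and holds the TSSs of EcR-RB, EcR-RC and EcR-RG.

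The strongest EcR peak had a value of 1606 and rank 192 in the IDR set. Its summit lay 24.2 kb into the gene and 12250 bp from the nearest EcR TSS, that of EcR-RD and EcR-RE. Its value was 821 at rank 147 in replicate 5 and 783 at rank 290 in replicate 7. The next 4 peaks of EcR had values of 861 at 52.3 kb, 838.5 at 51.4 kb, 720 at 17.8 kb and 455 at 43.95 kb from the most distal TSS. The remaining 11 peaks had values between 171 and 449. A run of 8 peaks lay between 40.7 and 53.7 kb, downstream of all 4 TSSs, and the last 29.6 kb up to the 3′ end of the window held none in the IDR set and 13 in the pooled list.

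Of the EcR promoters, the one shared by EcR-RB and EcR-RC carried an IDR peak 123 bp upstream of its TSS with a value of 449 at rank 2145. Its replicate values were 187 at rank 2427 in replicate 5 and 280 at rank 1943 in replicate 7. The EcR-RG TSS lies close by, 204 bp from the same summit, so this 1 peak serves both start sites. A weaker peak of value 183 lay 498 bp upstream of the most distal TSS, that of EcR-RA, just inside the 500 bp allowed, and 22 bp from the start of the gene tRNA:Arg-ACG-1-3. The promoter of EcR-RD and EcR-RE had no IDR peak. Its highest pooled peak had a value of 131 at rank 11377.

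usp encodes the partner with which EcR binds DNA, the fly counterpart of the vertebrate retinoid X receptors. The gene covers X from 2038798 to 2042311 on the reverse strand, 3.51 kb in all, with 2 TSSs. Its strongest peak had a value of 691 at rank 1041 in the IDR set, 282 at rank 1215 in replicate 5 and 403 at rank 1030 in replicate 7, and lay 124 bp upstream of the usp-RA TSS. A peak 134 bp upstream of the distal usp-RB TSS had a value of 198 at rank 7177, 88.5 at rank 7194 in replicate 5 and 120 at rank 7164 in replicate 7. Both start sites of usp were therefore marked in all lists. The weakest, of value 171 at rank 8528, stood at -327 bp from the usp-RA TSS and 229 bp from the TSS of the neighbour CG4313, and it had a value of 93.1 at rank 9695 in replicate 7. In replicate 5 it fell in the same peak as the strongest one. The remaining one, in the downstream flank, had a value of 177 at rank 8140, 58.4 at rank 11483 in replicate 5 and 114.7 at rank 7549 in replicate 7. Actn, the alpha-actinin gene, overlaps usp and shares the distal TSS, so these peaks cannot be given to usp alone.

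Hr38 encodes the fly member of the NR4A family, which can also pair with usp. The gene lies on 2L from 20683462 to 20714588 on the reverse strand and is 31.1 kb long, with 1 TSS. Both of its IDR peaks lay upstream of that TSS and none in the gene body, which held 4 weaker peaks in the pooled list. The promoter peak, 109 bp upstream of the TSS, had a value of 421 at rank 2373, 229 at rank 1749 in replicate 5 and 226 at rank 2766 in replicate 7. The second, 1660 bp upstream, had a value of 392 at rank 2676, 136 at rank 3995 in replicate 5 and 265 at rank 2105 in replicate 7. The replicates thus differed in which of the pair was higher. The window of the promoter peak is shown because it holds several GAGAG elements close to the summit. In this sequence and the others printed here, taken from the forward strand of the RefSeq genome of Release 6 (dm6) with annotated exons left out, capitals mark the GAGAG element and the AGGTCA half-site on either strand.
Hr38 promoter peak, chr2L:20714597-20714797: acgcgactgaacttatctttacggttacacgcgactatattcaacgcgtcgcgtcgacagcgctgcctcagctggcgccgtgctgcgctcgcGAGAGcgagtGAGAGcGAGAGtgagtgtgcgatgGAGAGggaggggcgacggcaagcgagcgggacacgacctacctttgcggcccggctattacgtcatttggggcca

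Hr4 encodes a receptor induced by ecdysone that represses early genes of the cascade at the onset of metamorphosis. It had the most IDR peaks of the 10 genes, 19, with 33 in the pooled list, 34 in replicate 5 and 36 in replicate 7. The gene covers X from 1941940 to 2007956 on the forward strand, 66.0 kb, and is transcribed from a distal TSS used by 7 of its 9 transcripts and from an internal TSS used by Hr4-RE and Hr4-RF. No IDR or pooled peak lay within 500 bp of the distal TSS, where replicate 7 alone had a peak, of value 28.1 at rank 28024. The internal TSS had an IDR peak 205 bp upstream with a value of 292 at rank 4223, 85.6 at rank 7483 in replicate 5 and 205 at rank 3220 in replicate 7.

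Most of the signal at Hr4 was intronic, with 16 of the 19 peaks in introns. The strongest peak, 9983 bp downstream of the distal TSS in intron 2 of Hr4-RK, had a value of 1998 at rank 117, 1003 at rank 86 in replicate 5 and 984 at rank 172 in replicate 7. The next, 22.0 kb into the gene in intron 3, had a value of 1429 at rank 249, 790 at rank 158 in replicate 5 and 666 at rank 394 in replicate 7. A peak of value 1201 at rank 351 lay 3437 bp downstream of the internal TSS. Peaks of 1060 at 5.78 kb and 751 at 42.8 kb completed the highest 5, and the other 14 had values between 186 and 675. Of those, 1 in the upstream flank lay 131 bp from the TSS of CG3587 and 1 in the downstream flank lay 85 bp from the start of lncRNA:CR45478. Shown are the strongest window of the gene, which holds neither motif, the window of the peak of value 1201, which holds both, and the window upstream of the internal TSS, which holds 10 overlapping or separate GAGAG matches.
Hr4 strongest peak, chrX:1951823-1952023: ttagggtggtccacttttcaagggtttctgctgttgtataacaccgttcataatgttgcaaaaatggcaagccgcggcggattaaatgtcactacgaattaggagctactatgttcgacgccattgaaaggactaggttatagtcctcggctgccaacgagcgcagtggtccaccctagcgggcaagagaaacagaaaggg
Hr4 peak of value 1201, chrX:1995637-1995837: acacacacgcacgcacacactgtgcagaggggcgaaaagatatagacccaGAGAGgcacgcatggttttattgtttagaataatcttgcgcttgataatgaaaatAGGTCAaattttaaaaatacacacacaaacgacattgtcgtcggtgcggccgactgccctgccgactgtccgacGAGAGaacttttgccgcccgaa
Hr4 internal promoter peak, chrX:1991995-1992195: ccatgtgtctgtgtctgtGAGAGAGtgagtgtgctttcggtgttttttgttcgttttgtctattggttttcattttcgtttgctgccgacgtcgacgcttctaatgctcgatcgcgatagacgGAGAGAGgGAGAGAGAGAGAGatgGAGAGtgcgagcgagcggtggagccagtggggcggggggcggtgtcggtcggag

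ftz-f1 encodes an orphan receptor that is needed for segmentation in the early embryo and again, from another promoter, as a competence factor before metamorphosis. It held 17 IDR peaks, 37 pooled peaks, 39 in replicate 5 and 42 in replicate 7, and the strongest single peak of the 10 genes. The gene covers 3L from 18750607 to 18801309 on the reverse strand, 50.7 kb, with 3 TSSs. The strongest peak lay 36 bp upstream of the most distal TSS, that of ftz-f1-RB, with a value of 4137 at rank 25 of the IDR set, 1955 at rank 24 in replicate 5 and 2193 at rank 26 in replicate 7. Its rank hardly moved between the lists. The start of lncRNA:CR45939 lies 33 bp from the same summit, so the peak cannot be given to ftz-f1 alone.

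The TSS of ftz-f1-RC and ftz-f1-RD had a peak 240 bp upstream, 35.3 kb into the gene, with a value of 607 at rank 1310, 252 at rank 1466 in replicate 5 and 368 at rank 1214 in replicate 7. The most internal TSS, that of ftz-f1-RA, had no IDR or pooled peak within 500 bp. Intron 2 of ftz-f1-RB, 33674 bp long, contains both internal start sites and held most of the other peaks. Among them were peaks of value 1108 at 11.6 kb, 1056 at 29.5 kb, 641 at 32.2 kb and, in the 5′ UTR of ftz-f1-RB at 1.05 kb, 629. The remaining 11 peaks had values between 197 and 616. Of the 17 peaks 9 were among the strongest 2143 of the IDR set, the top 25%, more than at any other of the 10 genes. The windows shown are those of the strongest peak, of the internal promoter peak with its run of GAGAG elements, and of the intronic peak of value 1056, which holds AGGTCA and GAGAG.
ftz-f1 distal promoter peak, chr3L:18801313-18801445: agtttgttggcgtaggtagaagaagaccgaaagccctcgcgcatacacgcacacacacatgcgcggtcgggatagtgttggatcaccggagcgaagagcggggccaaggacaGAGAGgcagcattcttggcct
ftz-f1 internal promoter peak, chr3L:18765884-18766084: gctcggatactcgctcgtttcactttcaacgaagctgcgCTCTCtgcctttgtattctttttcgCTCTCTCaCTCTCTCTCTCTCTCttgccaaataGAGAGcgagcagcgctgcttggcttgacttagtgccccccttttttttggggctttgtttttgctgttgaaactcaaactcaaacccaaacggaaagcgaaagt
ftz-f1 intronic peak, chr3L:18771681-18771881: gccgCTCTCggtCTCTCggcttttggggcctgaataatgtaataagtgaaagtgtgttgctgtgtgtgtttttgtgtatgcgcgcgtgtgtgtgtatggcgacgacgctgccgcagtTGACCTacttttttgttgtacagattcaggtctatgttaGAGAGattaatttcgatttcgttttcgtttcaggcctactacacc

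Hr39 encodes a receptor related to FTZ-F1 that recognises similar DNA sites. The gene lies on 2L from 21237250 to 21259675 on the forward strand, is 22.4 kb long and has 1 TSS. It held 5 IDR peaks, and their values stayed within a narrow range. The promoter peak, 169 bp downstream of the TSS, had a value of 271 at rank 4732, 154 at rank 3282 in replicate 5 and 103 at rank 8629 in replicate 7. The highest, in intron 2 of Hr39-RD at 6939 bp, had a value of 306 at rank 3945, 118 at rank 4929 in replicate 5 and 189 at rank 3688 in replicate 7. The promoter peak was thus the stronger of the pair in replicate 5 and the weaker in replicate 7. The other 3 peaks of Hr39 were also in intron 2. That at 14.65 kb had a value of 268 at rank 4810, 120 at rank 4845 in replicate 5 and 149 at rank 5253 in replicate 7. That at 13.6 kb had a value of 240 at rank 5612, 70.7 at rank 9384 in replicate 5 and 173 at rank 4257 in replicate 7. That at 8.22 kb had a value of 182 at rank 7909, 92.2 at rank 6805 in replicate 5 and 93.1 at rank 9697 in replicate 7. The window of the highest peak is shown because it is the 1 window of Hr39 with an AGGTCA match.
Hr39 intronic peak, chr2L:21244089-21244289: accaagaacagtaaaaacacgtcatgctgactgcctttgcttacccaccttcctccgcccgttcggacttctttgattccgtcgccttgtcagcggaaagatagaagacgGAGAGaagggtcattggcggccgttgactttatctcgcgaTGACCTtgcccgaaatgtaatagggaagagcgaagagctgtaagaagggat

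Eip78C encodes a receptor induced early by ecdysone and related to the vertebrate Rev-erb proteins. The gene covers 3L from 21226609 to 21266503 on the forward strand, 39.9 kb, with 3 TSSs. All 6 of its IDR peaks lay inside the gene, from the internal TSS of Eip78C-RB onwards. The promoter peak, 41 bp downstream of that TSS, was the highest, with a value of 335 at rank 3425, 143 at rank 3719 in replicate 5 and 189 at rank 3706 in replicate 7. Neither distal TSS, which serve Eip78C-RA, Eip78C-RD and Eip78C-RE, had a peak within 500 bp in any of the 4 lists. Upstream of that peak, whose summit stood 13.8 kb into the gene, no IDR or pooled peak lay in the gene. Of the intronic peaks of Eip78C, that at 15.2 kb had a value of 278 at rank 4548, 84.9 at rank 7569 in replicate 5 and 187 at rank 3750 in replicate 7. That at 16.3 kb had a value of 175 at rank 8255, 75.7 at rank 8654 in replicate 5 and 98.4 at rank 9098 in replicate 7. The other 3 had lower values than the peak at 15.2 kb. The peaks at 24.95 and 25.2 kb, with values of 190 at rank 7528 and 172 at rank 8452, fell in the same peak of replicate 7, of value 100 at rank 8924. In replicate 5 they had values of 75.5 at rank 8677 and 78.8 at rank 8257. The last, at 35.2 kb and close to the lower end of the IDR set, had a value of 171 at rank 8527, 83.7 at rank 7689 in replicate 5 and 84.8 at rank 10706 in replicate 7.

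Hr78 encodes a receptor related to the vertebrate testicular receptors and needed for larval growth and moulting. The gene covers 3L from 21494019 to 21497494 on the reverse strand, 3.48 kb, with 3 TSSs. Its single IDR peak lay 1343 bp upstream of the gene, inside the neighbour Glg1, with a value of 236 at rank 5743, 120 at rank 4792 in replicate 5 and 118 at rank 7276 in replicate 7. At its own start sites the highest pooled value was 132 at rank 11282, 16 bp downstream of the distal TSS and below the IDR set. No peak of the IDR set thus lay within 500 bp of a start site of Hr78, though each replicate list had weaker ones. Around the Hr78-RE TSS the highest had a value of 53.2 at rank 12597 in replicate 5 and 100 at rank 8916 in replicate 7.

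Hr3 encodes an early-late receptor that induces ftz-f1 before metamorphosis. The gene covers 2R from 10203995 to 10237348 on the reverse strand, 33.4 kb, and overlaps CG12912 and CG46321. Its strongest peak lay 17.3 kb into the gene in intron 1 of Hr3-RD, with a value of 1533 at rank 212, 415 at rank 574 in replicate 5 and 1156 at rank 128 in replicate 7. This peak differed in rank between the replicates more than the strongest peaks of ftz-f1, Hr4 and EcR. The peak at 6.50 kb had a value of 565 at rank 1487, 196 at rank 2257 in replicate 5 and 359 at rank 1261 in replicate 7. That at 9.26 kb had a value of 368 at rank 2956, 173 at rank 2781 in replicate 5 and 188 at rank 3729 in replicate 7. That at 12.5 kb had a value of 211 at rank 6580, 109 at rank 5500 in replicate 5 and 116 at rank 7475 in replicate 7. The peak of value 368 lay 128 bp upstream of the most internal of the 3 TSSs, that of Hr3-RA, Hr3-RF and Hr3-RH, a start site that CG46321 shares. Neither of the distal start sites of Hr3 had a peak within 500 bp in any list.

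Hr51, also called unfulfilled, encodes an orphan receptor known for its part in axon development in the mushroom body of the brain. The gene covers 2R from 15331325 to 15339384 on the forward strand, 8.06 kb, with 1 TSS. It had 1 peak in every list, 326 bp beyond its 3′ end and 762 bp from the TSS of unc-5, the next gene. Its value was 333 at rank 3473, 117 at rank 5019 in replicate 5 and 224 at rank 2810 in replicate 7. The gene body of Hr51 and its promoter had no peak in any list.

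**Figure D2:**
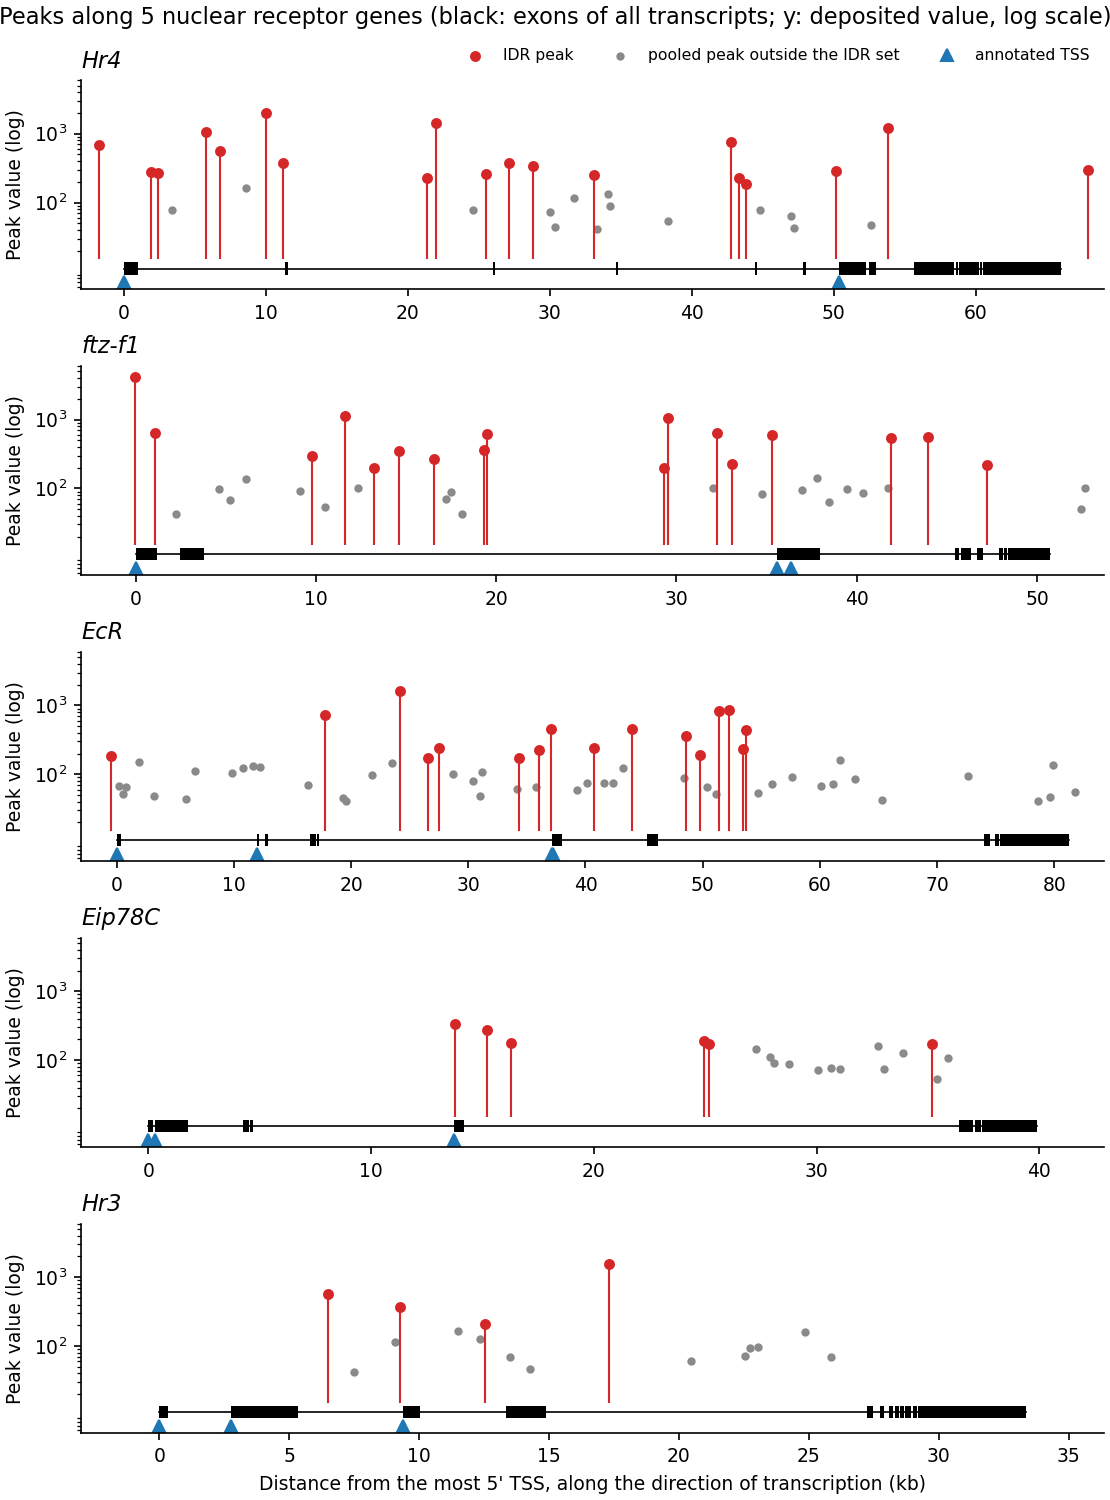
Peaks along Hr4, ftz-f1, EcR, Eip78C and Hr3, with the deposited value of each peak (y, log scale) against the distance of its summit from the most 5′ TSS in the direction of transcription (x, kb). Red stems are IDR peaks, grey points are pooled peaks outside the IDR set, black boxes are exons of all transcripts and blue triangles are annotated TSSs. Most IDR peaks lie in introns, which also have long stretches without one. In Hr4, Eip78C and Hr3 the internal start site has an IDR peak within 500 bp while the most distal one has none.

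The 10 genes have 23 distinct start sites, of which 12 had an IDR peak within 500 bp and 16 a pooled one. An IDR peak at an own TSS was found at 8 of the 10 genes, the exceptions being Hr51 and Hr78, and at 21.3% of coding genes. Among genes with several start sites, usp had an IDR peak at each, and the others did not. Hr4, Hr3 and Eip78C had an IDR peak at the most internal site and none at the distal ones, and ftz-f1 had peaks at the distal and the middle site and none at the most internal one. Of the 12 promoter peaks 10 had their summit upstream of the TSS.

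By placement, 56 of the 75 IDR peaks were intronic, which is 74.7% (exact binomial 95% interval 63.3 to 84), and 12 were at an own promoter, which is 16% (8.55 to 26.3). A further 1 lay in a 5′ UTR, 3 in an upstream flank and 3 in a downstream flank. None lay in a coding exon or a 3′ UTR, where the exact interval for 0 of 75 reaches up to 4.8%. Counting start sites of any gene, 21.3% of the 75 peaks (12.7 to 32.3) lay within 500 bp of a TSS, against 40.2% of all IDR peaks (39.2 to 41.2). More than 5 kb from every start site of their own gene were 46 of the 75. Apart from the share near a TSS of any gene, these placements were not counted over all IDR peaks. They are therefore not shown to be particular to these genes, which are long. The intervals cover counting error only, and peaks of 1 gene share a locus and are not independent.

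The IDR peaks at the 10 genes had a median value of 306, against 289 for all IDR peaks. The strongest 2143 IDR peaks, with values of at least 449, held 24 of the 75, which is 32% (exact interval 21.7 to 43.8). This interval covers counting error only, and peaks of the same gene share a locus and are not independent. The genes were also selected on their measured peaks, so whether they hold a surplus of strong peaks was not tested. Of those 24 peaks 21 lay at Hr4, ftz-f1 and EcR. The medians by gene were 545 at ftz-f1, 467 at Hr3, 406 at Hr38, 344 at Hr4, 298 at EcR, 268 at Hr39, 188 at usp and 183 at Eip78C. Within ftz-f1 the values ran from 197 to 4137, and within Hr39 from 182 to 306. Just inside the IDR set stood the usp peak of value 171, and just outside it an Hr3 peak of value 166.

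**Figure D3:**
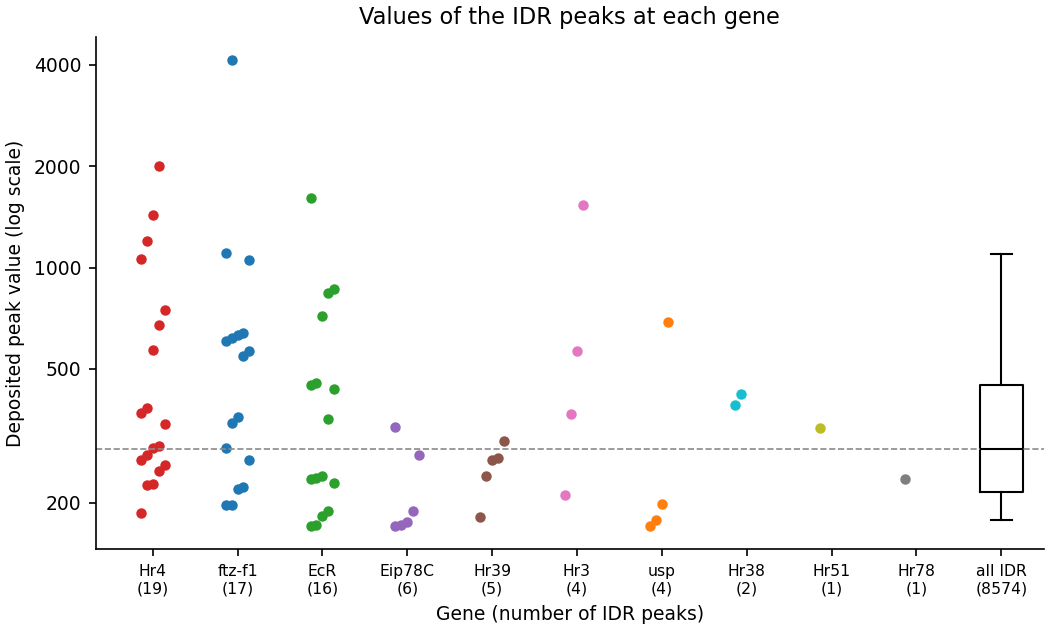
Deposited values (y, log scale) of the IDR peaks at each of the 10 genes, 1 point a peak, with the number of peaks under each name, beside all 8574 IDR peaks as a box (median and quartiles, whiskers from the 5th to the 95th percentile). The dashed line is the median of all IDR peaks, 289, and the ftz-f1 promoter peak at 4137 is the highest point.

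Each of the 75 peaks had an overlapping peak in replicate 5 and in replicate 7, as did 97.5% of all IDR peaks. In replicate 5 they fell in 73 distinct peaks and in replicate 7 in 74. Their median rank was 3719 in replicate 5 and 3706 in replicate 7, and 37 of the 75 ranked higher in replicate 5. For 54 of the 75 the ranks were within 2-fold of each other, and the Spearman correlation of the values was 0.685 over the 75 peaks, given as a description since peaks of a gene share a locus and all passed the same filter. The strongest summit was the same within 100 bp in both replicates for 8 of the 10 genes, with Hr38 and Hr39 as the exceptions. The widest gap was at an Hr4 peak of value 226, which had rank 1472 in replicate 5 and 26473 in replicate 7. Another Hr4 peak, of value 277, had rank 14877 in replicate 5 and 2924 in replicate 7.

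**Figure D4:**
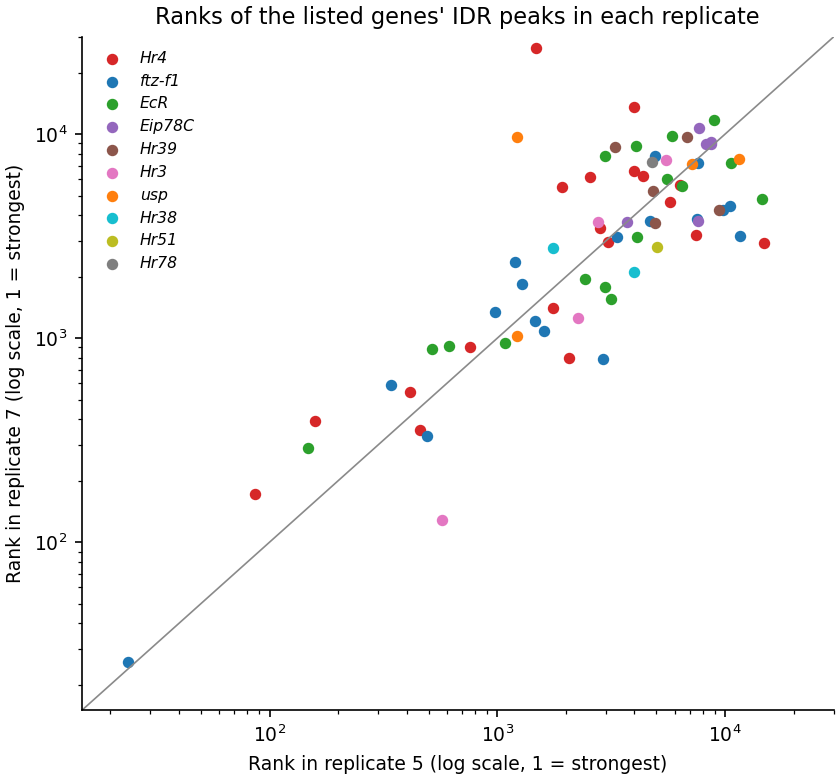
Rank of each of the 75 IDR peaks of the 10 genes in replicate 5 (x) and replicate 7 (y), both on log scales with 1 as the strongest, coloured by gene; the line marks equal ranks. The ftz-f1 promoter peak stands at ranks 24 and 26, and the Hr4 peak farthest from the line at ranks 1472 and 26473.

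The DNA under the peaks was searched on both strands, within 100 bp of each summit, for AGGTCA, the half-site that many nuclear receptors bind, and for GAGAG, the element bound by the GAGA factor. AGGTCA was present in 13 of 75 windows, 17.3% (9.57 to 27.8), against 4.75% of all IDR windows (4.31 to 5.22). These intervals cover counting error only, and windows of 1 gene share a locus and are not independent. The genes and motifs were chosen with earlier results of these data known, so no test of enrichment was made. Among peaks more than 500 bp from any TSS the shares were 20.3% (11 to 32.8) of 59 windows at the 10 genes and 5.34% (4.74 to 6) of all such IDR windows. The windows with a match were 6 of 17 at ftz-f1, 3 of 19 at Hr4, 3 of 16 at EcR and 1 of 5 at Hr39. The other 6 genes, with 18 windows in all, had none. Whether the matches are unevenly spread over the genes was not tested. GAGAG was present in 52% of the windows (40.2 to 63.7), against 32.4% of all IDR windows (31.4 to 33.4). By gene it was in 13 of 17 windows at ftz-f1, 9 of 16 at EcR, 6 of 19 at Hr4 and 5 of 5 at Hr39. It was also in 3 of 6 windows at Eip78C, 2 of 2 at Hr38 and 1 of 4 at Hr3. It was in 0 of 4 at usp, 0 of 1 at Hr51 and 0 of 1 at Hr78. The median GC content of the windows was 47.8% at the 10 genes and 44.3% over all IDR windows, and its part in these shares was not tested.

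Longer receptor motifs were rare. TCAAGGTCA, the type bound by FTZ-F1, was in 0 of 75 windows at the 10 genes and in 0.28% of all IDR windows. AAAGGTCA, the type bound by Hr38, was in 1.33% of the windows at the 10 genes and in 0.385% of all. Both contain AGGTCA, so such a match also counts as a half-site. The EcR-USP palindrome, an inverted repeat with 1 spacer base in which 2 of the 12 set bases were allowed to differ, was in 1 window, that of the strongest EcR peak, and in 0.42% of all IDR windows. TATCGATA, the DNA replication-related element, was in 0 of 75 windows and in 1.89% of all, and the exact interval for 0 of 75 reaches up to 4.8%. Among peaks more than 500 bp from any TSS it was in 0 of 59 windows at the 10 genes and in 0.429% of all such IDR windows. A match is a string of letters, not a site shown to be bound.

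**Figure D5:**
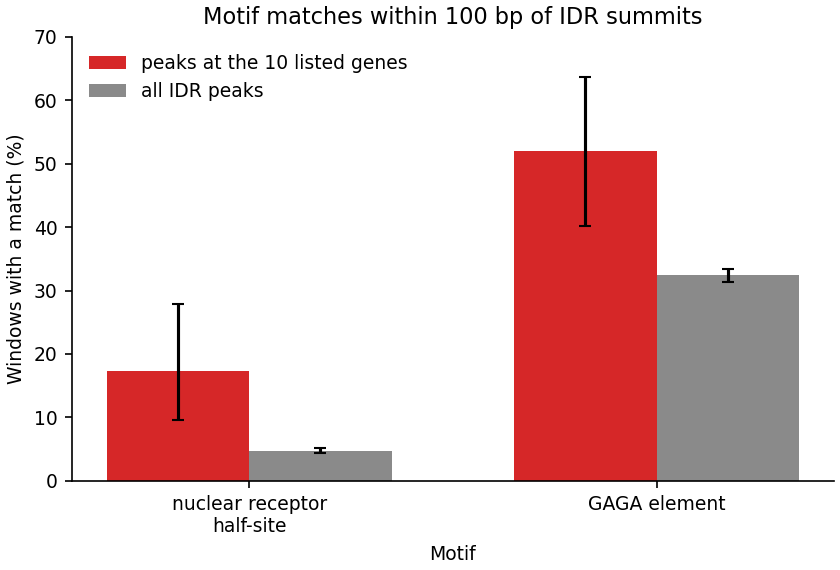
Share of windows of 100 bp to each side of the summit (y, %) with a match to the nuclear receptor half-site or the GAGA element, for the 75 IDR peaks of the 10 genes (red) and all 8574 IDR peaks (grey). Error bars are exact binomial 95% intervals, and the half-site shares are 17.3% and 4.75%.

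The other 11 nuclear receptor genes covered the whole range of counts. Eip75B, an ecdysone-induced gene of 114 kb that encodes a Rev-erb-like receptor, had 35 IDR peaks, the most of all coding genes. Hnf4, a regulator of lipid metabolism, had 6, ERR and knrl 2 each, and Hr96, Hr83 and svp 1 each. The single Hr96 peak had a value of 1632 at rank 185. kni had no IDR peak and 5 pooled ones, and tll, dsf and eg had no peak in any of the 4 lists. Genes of similar length could differ in count, as svp, at 44.0 kb, had 1 IDR and 2 pooled peaks while the listed ftz-f1, at 50.7 kb, had 17 and 37. The part of length in these counts was not tested. An IDR peak was present at 7 of these 11 genes, against 37.4% of all coding genes and 74.4% of those of at least 20 kb. All 10 listed genes had one, but they were selected on their measured peaks, so the 2 groups cannot be compared on this.

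Genes around the receptors were counted in the same way, over lists of known pathway members. Of 10 genes for the synthesis, import and turnover of ecdysone, 3 had an IDR peak, near the 37.4% of all coding genes. These were Oatp74D, the importer of the hormone, with 6, shd, which makes its active form, with 2, and Cyp18a1, which inactivates it, with 1. The 7 without included nvd at 76.8 kb and spok at 31.7 kb. Of 10 genes known to respond to the hormone, 7 had an IDR peak, led by Eip75B with 35, Eip74EF with 15 and Eip63E with 10. The share was 37.4% among all coding genes and 74.4% among those of at least 20 kb. These response genes measured 1.48 to 114 kb, with a median of 43.2 kb, so not all are in that class. Eip93F, at 65.4 kb, and Blimp-1, at 21.1 kb, had none, and br, at 89.7 kb, had 2. Of 7 cofactors and partners 4 had one, against 37.4% of all coding genes and 74.4% of those of at least 20 kb, the class of tai and Smr. The counts were 11 at the coactivator gene tai, 7 at the corepressor gene Smr and 2 each at bon and mbf1.

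The genes whose counts over the 4 lists were most like those of Hr4, by the distance between log2(count + 1) values, were siz at a distance of 0.17, InR at 0.349, ftz-f1 at 0.365, Mef2 at 0.37 and px at 0.384. They had 18, 16, 17, 16 and 15 IDR peaks in this order, and lengths of 40.9, 49.1, 50.7, 45.4 and 67.8 kb. ftz-f1 was the 1 nuclear receptor gene among them.

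Other genes lie close to many of the peaks. For 44 of the 75 peaks the nearest TSS was one of their own gene. That start site could be shared with another gene, as with CG46321 at Hr3 and Actn at usp. Inside another annotated gene as well lay 18 of the 75. Neither number was counted over all IDR peaks, so neither is shown to be particular to these genes. Farthest inside the 2 kb margin was an Hr4 peak 1916 bp past the 3′ end, and nearest outside it were peaks 2143 bp from usp and 2149 bp from EcR. Hr3, Hr39 and Eip78C had no IDR peak in the margin.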

How the data were processed

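ChIP-seq peak lists of 1 group with replicates 5 and 7 were analysed, on assembly dm6 per the labels. Each list gives a signal value per peak as the authors deposited it, and the pooled, replicate 5 and replicate 7 lists hold 30000 peaks each, so the number of peaks carries no information. The 8574 IDR peaks were the strongest 8574 of the pooled list, tested on the files. No source used here gives the aligner, the peak caller, the IDR threshold or the control. The label for age holds an impossible number, so the age was taken from the sample source. Depth is unknown, so no interval is given for a peak's value, and no p-value was computed.

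Summits were placed on the Ensembl release 115 annotation (BDGP6.54) with a margin of 2 kb, a promoter being 500 bp to either side of an own TSS, ahead of exon and intron. An intron is numbered in the longest transcript that has the summit in an intron. Ranks run from 1 for the strongest peak. A peak's replicate value is that of the overlapping peak with the nearest summit. Shares have 95% intervals by the exact Clopper-Pearson method; these cover counting error only. Motifs were searched in 201 bp windows of the RefSeq genome, Release 6. Python 3.11.15, pandas 2.3.3, numpy 2.4.6, scipy 1.17.1 and matplotlib 3.10.9 were used, and the counting functions were tested on simulated peaks.

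The genes, the pathway lists and the motifs were chosen with earlier results of these data known. All 10 genes are named, with every IDR peak in full for genes with up to 8 and the 5 highest for the others. In the pathway lists, 4 names were matched by hand to current symbols (phm to phtm, EcI to Oatp74D, Eip71CD to MsrA and Eip55E to Cth). Alternatives were a stricter threshold, the whole pooled list, each replicate alone, other margins, whole-peak overlap, merged summits, nearest-TSS assignment, other promoter distances and a narrower motif window.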

Additional observations from a re-analysis of the deposited data

How the results depend on the processing

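Limiting the IDR set to its strongest 2143 peaks left 24 peaks at 5 of the 10 genes, with 16.6% of coding genes still holding one, and the whole pooled list gave 199 peaks at the 10 genes. With either replicate alone, taking as many of its strongest peaks as the IDR set holds, the genes had 67 to 70 peaks and all 10 had at least 1. Counting a peak only where the TSS nearest to it was one of the 10 genes' own left 44 peaks. Without the margin the genes with a peak numbered 7 of 10, and 17.8% of coding genes had one. Under the other margins and overlap rules the number of peaks stayed between 65 and 88. The promoter share ranged from 10.1% in the pooled list to 21.3% with TSSs of any gene, and the AGGTCA share from 11.6% in the pooled list to 25% in the strongest 2143. By gene, the count at Hr39 without replicate 5 was 3 in place of 5, the 1 gene of the 10 to move by more than 1.5 times when a replicate was left out. No paired analysis was possible because there is 1 group.

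The lists hold no read counts and no untagged or input sample was analysed here, so neither depth nor background at these genes was measured. The 2 replicates come from 1 transgenic line, the fixed list length of 30000 sets how many weak peaks are seen, and whole embryos mix cell types. Peaks near overlapping genes, such as Actn at usp and lncRNA:CR45939 at ftz-f1, cannot be assigned to 1 of them.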

Other observations

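Intron 3 of EcR-RA contains tRNA genes, and some of its IDR peaks stood close to them. The peak of value 171 at rank 8525 lay 81 bp from the start of tRNA:Lys-CTT-1-1, and the peak of value 240 at rank 5610 lay 616 bp from that of tRNA:Arg-ACG-1-1. At ftz-f1 the IDR peak of value 220 at rank 6256 lay 4 bp from the start of lncRNA:CR45938, a transcript inside the gene. The ftz-f1 peak of value 197 at rank 7221 had 17 GAGAG matches in its window, the most of the 75, and its replicate ranks were 7639 in replicate 5 and 7226 in replicate 7.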
